A study of Mus musculus with 8 samples.

Results

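The 49 genes described here carry out DNA damage signalling and repair: kinases and sensors that register a lesion, chromatin factors that mark a break, and the enzymes of the main repair pathways. They were taken as a list of gene symbols, chosen with earlier results of these data known. Each symbol was matched to array probes through the RefSeq accession that a probe carries. Of the 49 genes, 48 had at least 1 probe, and the mediator gene Mdc1 had none. Their 74 probes included 61 that were bright enough to be tested, which gave 46 tested genes out of 12000 on the array. Bard1 (the partner of BRCA1) and Ogg1 (the glycosylase for oxidised guanine) had probes that were not well above background often enough, so neither has a level here. The arrays compared RNA of p53 null kidneys with RNA of p53 wild-type kidneys, both from C57BL/6 mouse embryos at embryonic day 15.5. Each of the 8 two-colour arrays carried both genotypes, one in each dye. Replicate 1 was hybridised on 4 arrays and replicates 2 and 3 on 2 arrays each, with the dyes swapped between the arrays of a pair. The null allele, the litters, the sex of the embryos and how many kidneys went into an RNA are not stated in the labels or files used here.

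A DNA break is first bound by sensor complexes, which switch on the kinases ATM and ATR. These phosphorylate histone H2AX and, through the checkpoint kinases CHEK1 and CHEK2, stabilise p53, which halts the cell cycle or starts cell death. Ubiquitin marks laid down by RNF8 and RNF168 then bring in 53BP1 and BRCA1, which steer a break to end joining or to recombination, while excision and mismatch pathways deal with damaged or mispaired bases. In the embryonic kidney, where nephron progenitors divide fast, the same genes also serve ordinary replication.

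Promoter windows of 4 of these genes are printed because the results below turn on them: Rnf168 and Trp53bp1 had the smallest p-values, Msh6 was the mismatch repair gene with the largest ratio, and Lig4 had the largest ratio of all. Each runs 5′ to 3′ and spans 250 bases before to 50 bases after a transcription start, from RefSeq on GRCm38.p6. Capitals mark matches on either strand to the GC box GGGCGG, the CCAAT box CCAAT or the E2F motif, written as TTTCCCGC, TTTCGCGC, TTTGCCGC or TTTGGCGC. The windows are those of Rnf168 at chr16:32277211-32277510 (plus strand), Trp53bp1 at chr2:121271358-121271657 (minus strand), Msh6 at chr17:87974800-87975099 (plus strand) and Lig4 at chr8:9977631-9977930 (minus strand, 1 of 2 start sites in the table).
Rnf168: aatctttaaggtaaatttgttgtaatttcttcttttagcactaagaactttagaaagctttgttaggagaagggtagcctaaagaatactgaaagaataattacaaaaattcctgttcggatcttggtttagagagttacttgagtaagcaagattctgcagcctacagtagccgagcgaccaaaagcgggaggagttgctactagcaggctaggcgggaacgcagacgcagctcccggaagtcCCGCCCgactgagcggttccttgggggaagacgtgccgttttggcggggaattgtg
Trp53bp1: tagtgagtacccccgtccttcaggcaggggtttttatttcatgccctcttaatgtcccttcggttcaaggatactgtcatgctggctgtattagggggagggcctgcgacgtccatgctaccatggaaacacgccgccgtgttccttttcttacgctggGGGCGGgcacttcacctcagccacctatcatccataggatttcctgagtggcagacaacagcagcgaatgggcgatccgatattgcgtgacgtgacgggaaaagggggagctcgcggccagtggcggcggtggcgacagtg
Msh6: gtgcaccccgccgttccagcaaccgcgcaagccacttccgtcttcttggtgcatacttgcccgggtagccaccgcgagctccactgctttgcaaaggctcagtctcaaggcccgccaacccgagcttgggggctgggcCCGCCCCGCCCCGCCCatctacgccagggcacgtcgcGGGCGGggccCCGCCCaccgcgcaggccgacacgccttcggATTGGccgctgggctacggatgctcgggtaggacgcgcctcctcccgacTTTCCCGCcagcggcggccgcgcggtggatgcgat
Lig4: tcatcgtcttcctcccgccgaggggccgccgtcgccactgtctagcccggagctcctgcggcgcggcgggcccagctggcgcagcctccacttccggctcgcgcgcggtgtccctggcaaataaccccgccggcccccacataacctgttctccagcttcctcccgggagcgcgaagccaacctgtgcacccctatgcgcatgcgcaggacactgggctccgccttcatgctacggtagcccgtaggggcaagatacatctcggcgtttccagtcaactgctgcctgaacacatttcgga

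The table held a window for 39 of the 49 genes. An E2F motif stood in 8 of the 39 windows (20.51%), against 4.027% of the windows of all tested genes and 2.316% of all windows. Those 8 genes were Bard1, Brca2, Chek2, Mdc1, Msh3, Msh6, Rad51c and Xrcc6. The 10-letter p53 decamer, searched by its consensus on both strands, matched 1 window, that of Fanca (2.564%), against 7.011% of the windows of tested genes. GC boxes stood in 71.79% and CCAAT boxes in 53.85% of the 39 windows, against 64.11% and 38.4% of those of tested genes. In the Msh6 window the first 3 GC boxes overlap by 1 base each and 1 E2F motif lies close to the start, and the Lig4 window holds no match to any of these motifs. A match describes these letters only.

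The arrays carry 2 features that bear on every value. The file headers give 1 scan time for all arrays of replicate 1 and another for those of replicates 2 and 3. Arrays with the same scan time are called slide 1 and slide 2 here. Whether they lay on the same glass slide was not checked. Wild-type levels of replicates 2 and 3 differed over all tested probes by an SD of 0.14 on the log2 scale in either dye orientation, against 0.17 and 0.15 between repeat arrays of the one wild-type extract of replicate 1 and 0.81 and 0.85 between replicates 1 and 2. The deposited files number the wild-type RNA of replicates 2 and 3 alike, so these replicates may share it, although the labels call all 3 biological. Null levels of replicates 2 and 3 differed by 0.18 and 0.20, against 0.19 and 0.13 between repeat arrays. Trp53, the targeted gene, had log2 levels of 7.998, 8.29 and 8.28 in null kidneys, against 9.08, 8.77 and 8.73 in wild-type kidneys, and its ratio was negative on all 8 arrays (log2 ratio −0.67 ± 0.36, SD over 3 replicates). A second Trp53 probe had 0.16 ± 0.13. The labels and files used here do not state the null allele, so whether it alters the sequence under either probe is not known. Xist was well above background in null RNA on 2 and in wild-type RNA on 8 of 8 arrays, while the Y-linked Eif2s3y and Kdm5d were so on 6 arrays in null RNA and on 0 in wild-type RNA. Of the other Y-linked genes, Ddx3y was so on 6 arrays in null RNA and on 2 in wild-type RNA, and Uty on 0 in either, so sex and genotype cannot be told apart. Of 16 kidney markers, 14 were tested, 10 of them with a ratio below 0 (median −0.14; summed signal 36376.4 to 37614.8 in null kidneys, against 38662.7 to 42593.7 in wild-type kidneys).

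No repair gene passed the adjusted threshold, and the ratios lay on both sides of 0. Each value is the log2 of null signal over wild-type signal, averaged over both dye orientations within a replicate and then over the 3 replicates. After Benjamini-Hochberg adjustment in limma over 20865 probes, 0 of the 46 genes had an adjusted p under 0.05, as did 0 of all 12000 tested genes (0%). Without adjustment 9 of the 46 had p under 0.05 (19.6%), against 18.2% of all tested genes. These were 5 with higher signal in null kidneys (9.23% of all genes) and 4 with lower signal (8.93% of all genes), so the share among the repair genes was near that of the array. The ratio was above 0 for 22 genes and below 0 for 24 (50.9% of all genes were above 0), and its median was −0.003, against 0.005 over all genes. With median centring of each array in place of loess, the median of all genes moved to 0.15 and that of the repair genes to 0.16. In that setting 4 of the 46 had higher and 0 lower signal at an unadjusted p under 0.05 in limma. Of all 12000 genes, 593 were higher and 297 lower. The ratios below are relative to the loess scale. For the 9 genes with an unadjusted p under 0.05, the value after median centring is given where it differs by more than 1.5 times. Among the rest of the 46 it often differed by more as well and is mostly not given below. Rad50 went from −0.18 to −0.03 and Parp1 from −0.30 to −0.04, while Msh3 went from 0.18 to 0.42 and Apex1 from 0.19 to 0.46. The extremes were Lig4 at 0.90 and Trp53bp1 at −0.58.

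**Figure D1:**
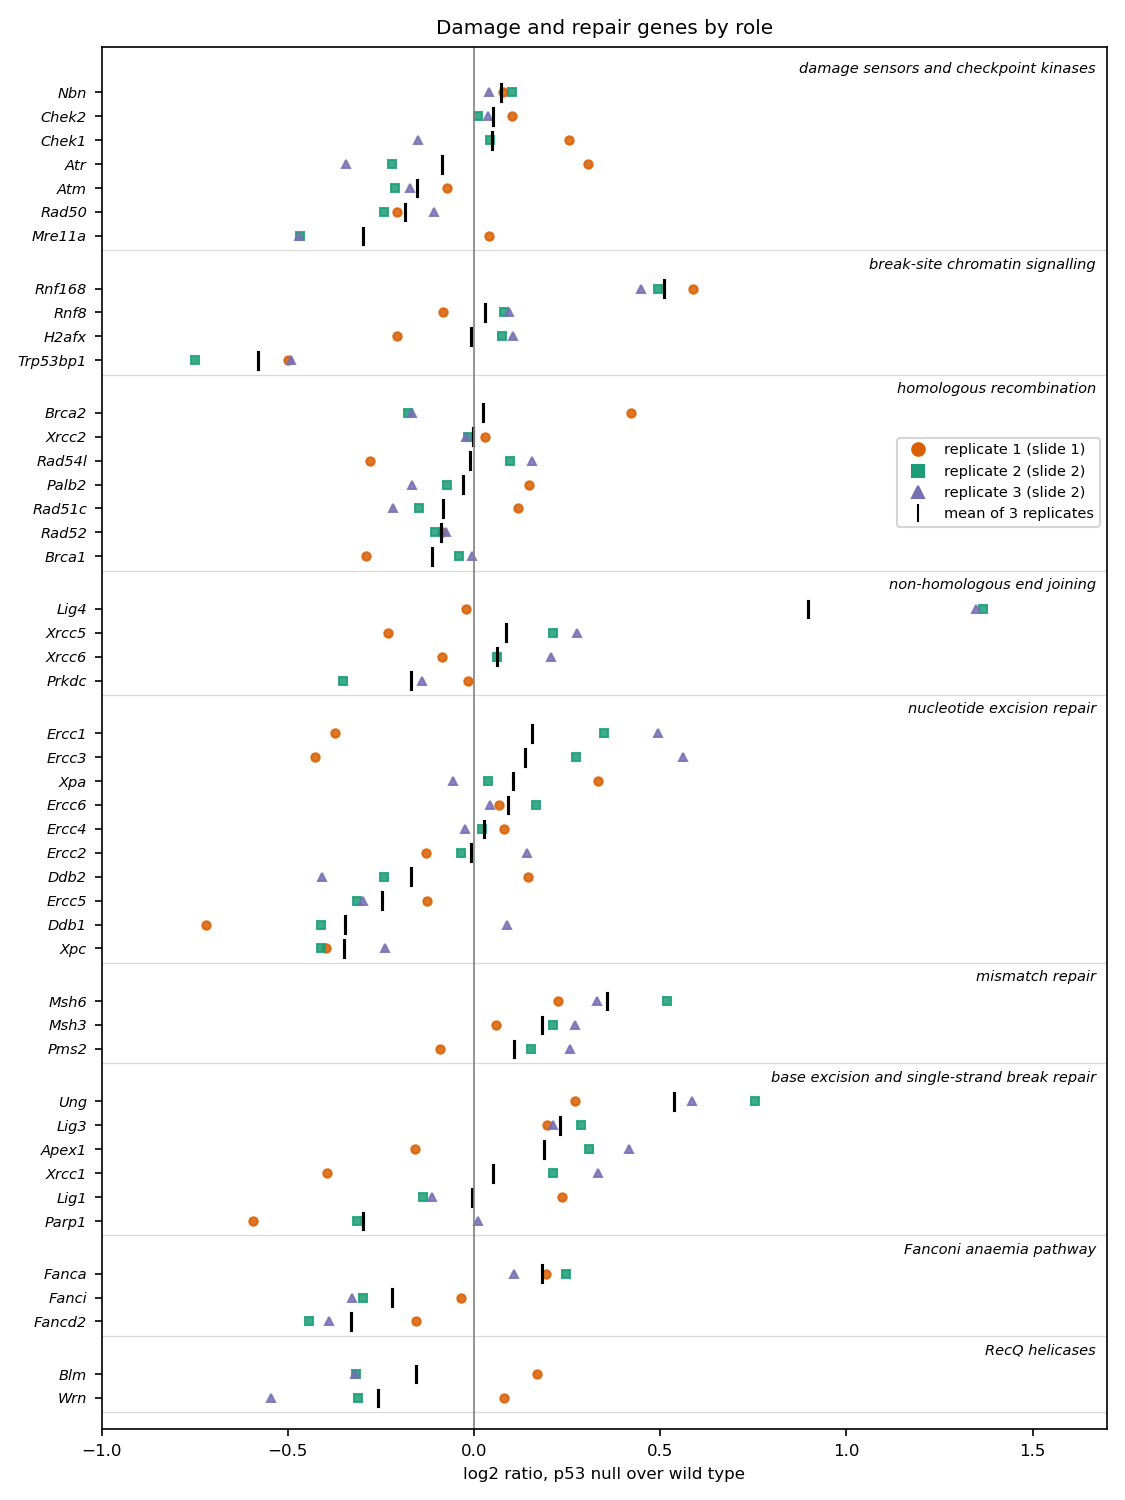
Log2 ratio of p53 null over wild-type signal for the 46 tested genes, grouped by role. Circles are replicate 1, squares replicate 2, triangles replicate 3, and the black bar is their mean; Rnf168 and Trp53bp1 keep their 3 symbols on one side of 0, while Lig4 has replicate 1 at −0.02 and the other two near 1.36.

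Agreement between replicates set how far a single gene could be read. The 3 replicates had 1 sign for 19 of the 46 genes, 9 upward and 10 downward (40.2% of all genes, 20.4% upward and 19.7% downward). For 14 of these genes the means of both dye orientations had that sign too (35.6% of all genes). Replicates 2 and 3 had the same sign for 40 of 46 genes (85.6% of all genes). Replicate 1 had the sign of the mean of replicates 2 and 3 for 21 of 46 (47.2% of all genes). In bulk kidney RNA, fewer cells of a type and less RNA per cell cannot be told apart.

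Break-site chromatin signalling held the 2 genes with the smallest p-values, and they pointed in opposite directions. Rnf168 encodes the ubiquitin ligase that extends the histone ubiquitin mark at a break. Its log2 signal was 10.76, 9.90 and 9.74 in null kidneys of replicates 1, 2 and 3, against 10.17, 9.41 and 9.29 in wild-type kidneys. Null was above wild type within each replicate, but the ranges overlapped, because signal in replicate 1 was above that on slide 2 by 0.94 in null and 0.83 in wild-type kidneys. The ratio was 0.51 ± 0.07 (95% interval 0.31 to 0.71; 1.42-fold), above 0 on all 8 arrays, with limma adjusted p = 0.279. Arrays with null RNA in Cy5 averaged 0.71 and those with null RNA in Cy3 averaged 0.31. A second Rnf168 probe was too dim to be tested and had −0.04 ± 0.17.

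Trp53bp1 encodes 53BP1, the p53-binding protein that reads this mark and protects broken ends. Its log2 signal was 10.59, 10.53 and 10.85 in null kidneys, against 11.09, 11.28 and 11.34 in wild-type kidneys. All 3 null values lay below all 3 wild-type values, which held for 4 of the 46 genes (2.52% of all genes). The ratio was −0.58 ± 0.15 (interval −0.82 to −0.34; 0.669-fold), negative on all 8 arrays, with limma adjusted p = 0.279, and it was −0.34 after median centring. The second Trp53bp1 probe leaned the same way, at −0.28 ± 0.21. Rnf8, the ligase that acts before Rnf168, had 0.03 ± 0.10, and H2afx, which encodes the histone marked at breaks, had −0.21, 0.08 and 0.10 in the 3 replicates.

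**Figure D2:**
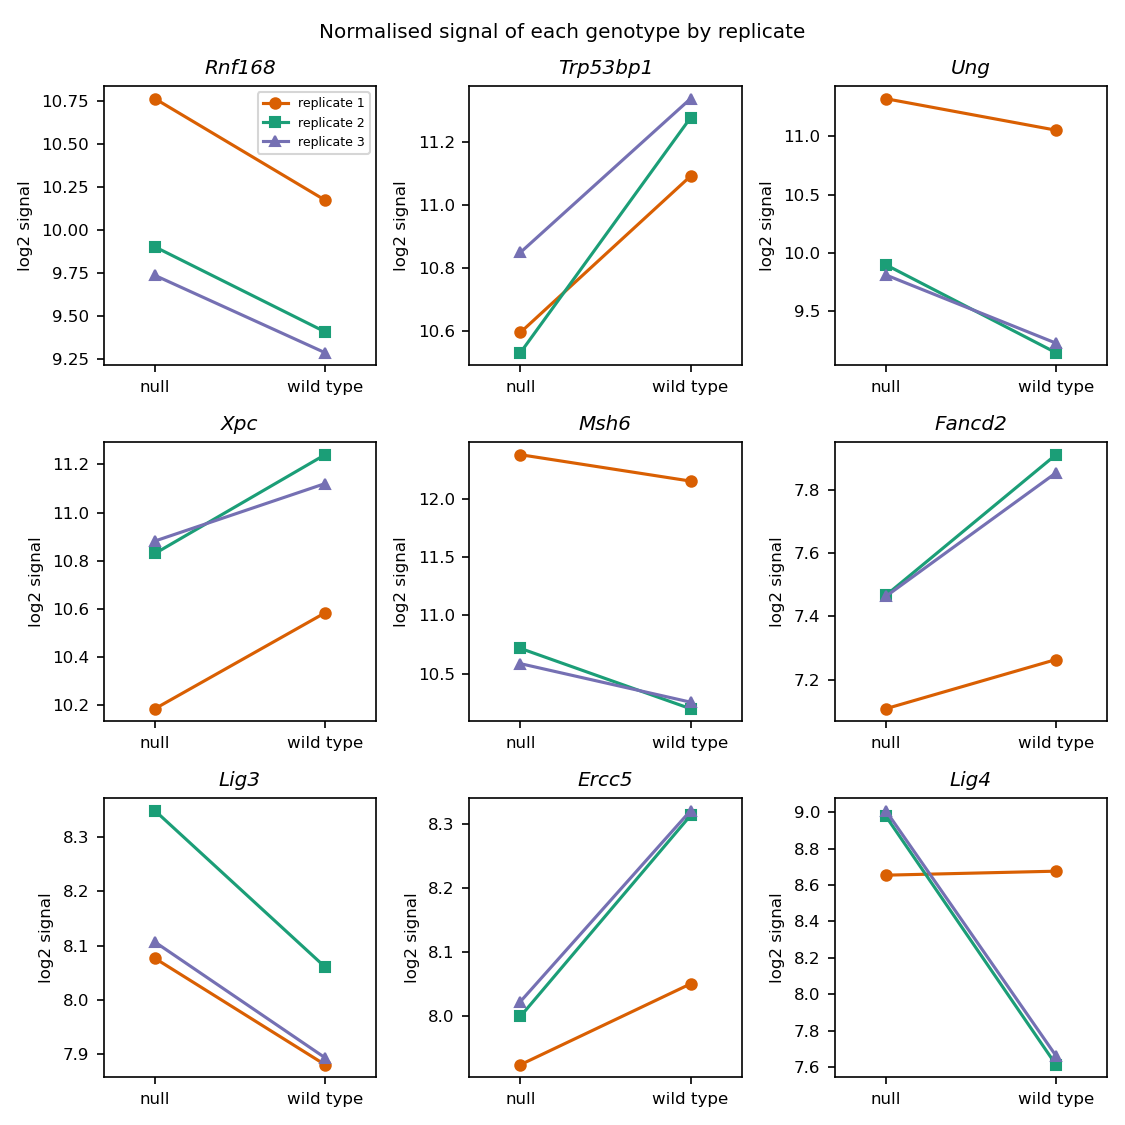
Log2 signal after normalisation for the 9 genes with an unadjusted p under 0.05, with null kidneys on the left and wild-type kidneys on the right of each panel; each line joins the genotypes of 1 replicate, and the axes do not start at 0. The 3 lines of Trp53bp1 and Ercc5 all climb to wild type, and for Lig4 the wild-type points split into 8.68 in replicate 1 and 7.61 and 7.66 on slide 2.

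Sensors and checkpoint kinases stayed close to even: 3 of 7 ratios were above 0, and 0 had an unadjusted p under 0.05. The lowest was Mre11a, the nuclease of the MRE11-RAD50-NBN complex, at 0.04, −0.47 and −0.47 in replicates 1, 2 and 3, so its ratio rested on slide 2; a second Mre11a probe had −0.04 ± 0.08. Rad50, which holds that complex together, had −0.21, −0.24 and −0.11, while Nbn, the remaining subunit, had 0.08, 0.10 and 0.04. Both kept 1 sign over replicates but not over dyes: Rad50 had −0.37 with null RNA in Cy5 and 0.0022 with null RNA in Cy3, and Nbn had 0.17 and −0.026 in the same order.
Atm, the kinase for double-strand breaks, had log2 levels of 7.22, 7.10 and 7.11 in null kidneys, against 7.29, 7.31 and 7.29 in wild-type kidneys. The groups did not overlap, yet the ratio was small (−0.15 ± 0.07) and a second Atm probe had −0.01 ± 0.12. Atr, the kinase for stalled replication forks, had 0.31, −0.22 and −0.34, so replicate 1 opposed slide 2. Chek1, its target kinase, had 0.26, 0.04 and −0.15, and Chek2, the target of ATM, had 0.10, 0.01 and 0.04. Chek1 signal was 1.65 higher in null and 1.34 higher in wild-type kidneys of replicate 1 than on slide 2, a larger gap than any of its ratios.

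Recombination genes had mean ratios close to 0, although single replicates lay further out: their SD over the 7 genes was 0.25, 0.09 and 0.13 in replicates 1, 2 and 3. Of 7 tested, 1 mean ratio was above 0 and 6 were below, all between −0.11 and 0.03, with 0 under an unadjusted p of 0.05 at the brightest probes. Brca1, which starts resection of broken ends, had −0.29, −0.04 and −0.0049 in replicates 1, 2 and 3. Brca2, which acts at resected single strands, had 0.42, −0.18 and −0.17, and Rad51c, which acts at the strand-exchange step, had 0.12, −0.15 and −0.22, so for both the sign of replicate 1 was opposite to that on slide 2. Palb2, the bridge between BRCA1 and BRCA2, had −0.03, the motor protein gene Rad54l −0.01 and Xrcc2, which acts at the same step, −0.002 as means. Rad52, an annealing protein, had −0.09 ± 0.01 at its brightest probe. Its other probe had −0.21 ± 0.06 and was negative on all 8 arrays (limma unadjusted p = 0.040, adjusted p = 0.285). The other Xrcc2 probe had 0.13 ± 0.03.

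End joining held the widest ratio of the 46 genes, and it came from slide 2. Lig4 encodes the ligase that seals the ends. Its log2 signal was 8.65, 8.98 and 9.01 in null kidneys, against 8.68, 7.61 and 7.66 in wild-type kidneys. Null kidneys of replicate 1 stood 0.34 below those of slide 2 (a difference of −0.34), whereas wild-type kidneys of replicate 1 stood 1.04 above. The ratio was −0.02, 1.37 and 1.35 in replicates 1, 2 and 3, or 0.90 ± 0.80 as a mean (1.86-fold; limma adjusted p = 0.289), and a second Lig4 probe had 0.11, 1.60 and 1.57. Both high values come from slide 2, whose replicates may share wild-type RNA; its part in the result was not tested. Prkdc, the catalytic kinase of end joining, had −0.01, −0.35 and −0.14. The Ku subunit genes Xrcc5 and Xrcc6, which ring broken ends, had −0.23, 0.21 and 0.28, and −0.08, 0.06 and 0.21, so neither had 1 sign.

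**Figure D3:**
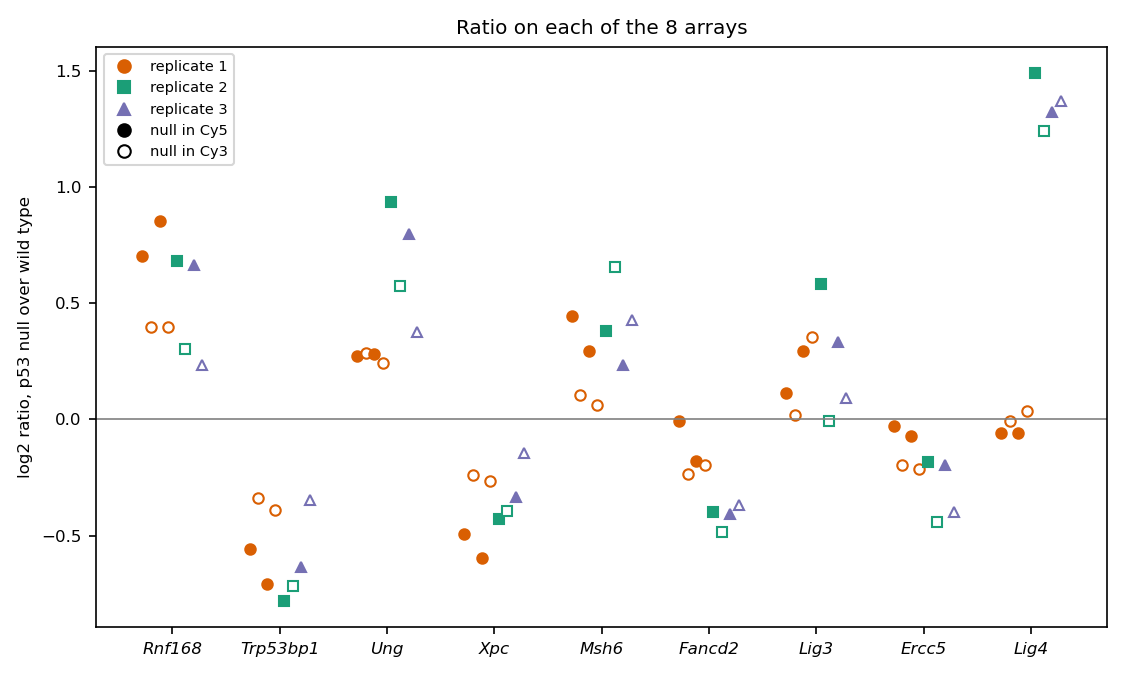
Log2 ratio of p53 null over wild-type signal on each of the 8 arrays for the 9 genes with an unadjusted p under 0.05; shape and colour give the replicate, filled symbols null RNA in Cy5 and open symbols null RNA in Cy3. All 8 arrays lie on one side of 0 for Rnf168, Trp53bp1, Ung, Xpc, Msh6, Fancd2 and Ercc5, 7 of 8 for Lig3 and 5 of 8 for Lig4.

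Nucleotide excision repair, which cuts out bulky and ultraviolet lesions, split evenly, with 5 of 10 ratios above 0 and 5 below. Xpc, the lesion sensor of the global branch and a known p53 target in human cells, had log2 levels of 10.18, 10.83 and 10.88 in null kidneys, against 10.58, 11.24 and 11.12 in wild-type kidneys. Null lay below wild type within each replicate, while the ranges overlapped because replicate 1 was dimmer in both genotypes. The ratio was −0.35 ± 0.10 (interval −0.56 to −0.14; 0.785-fold), negative on all 8 arrays (limma adjusted p = 0.279), and the second Xpc probe had −0.34 ± 0.29. After median centring the Xpc ratio was −0.11. Ercc5 (XPG), the nuclease that cuts on the 3′ side, had levels of 7.92, 7.999 and 8.02 in null kidneys, against 8.05, 8.31 and 8.32 in wild-type kidneys. Those groups did not overlap, and the ratio was −0.25 ± 0.10 (limma adjusted p = 0.283), with −0.11 after median centring and −0.40 computed from the authors' deposited table.
Ddb2, the damage-binding subunit and likewise a p53 target in human cells, had 0.14, −0.24 and −0.41 in replicates 1, 2 and 3. Its partner Ddb1, which also serves other ubiquitin ligases, had −0.72, −0.41 and 0.09. For both, 1 replicate opposed the other two. Ercc1, a subunit of the nuclease that cuts on the 5′ side, had −0.37, 0.35 and 0.49, and the helicase gene Ercc3 had −0.43, 0.28 and 0.56, so the sign again turned between slides. Ercc6 (CSB), of the transcription-coupled branch, had 0.07, 0.17 and 0.04. Xpa, Ercc4 and Ercc2 had means between −0.01 and 0.11.

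Mismatch repair was the role in which every tested gene, 3 of 3, had a mean ratio above 0. Msh6, which finds mispaired bases, had log2 levels of 12.38, 10.72 and 10.59 in null kidneys, against 12.15, 10.20 and 10.25 in wild-type kidneys. The gap between slides (1.73 in null and 1.93 in wild-type kidneys) was several times the gap between genotypes. Its ratio was 0.36 ± 0.15 (interval 0.11 to 0.60; 1.28-fold), above 0 on all 8 arrays (limma adjusted p = 0.279). After median centring it was 0.603. Msh3, which finds small loops of unpaired bases, had 0.06, 0.21 and 0.27, and its dimmer probes both had 0.05. Pms2, of the complex that follows, had −0.09, 0.15 and 0.26.

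Base excision and single-strand break repair held 2 genes with an unadjusted p under 0.05, both above 0. Ung, the glycosylase that removes uracil, had log2 levels of 11.32, 9.90 and 9.81 in null kidneys, against 11.05, 9.14 and 9.22 in wild-type kidneys. The ratio was 0.27, 0.76 and 0.59 in replicates 1, 2 and 3, or 0.54 ± 0.25 (1.45-fold; limma adjusted p = 0.279), and 8 of 8 arrays were above 0. Lig3, the ligase that works with XRCC1, had levels of 8.08, 8.35 and 8.11 in null kidneys, against 7.88, 8.06 and 7.89 in wild-type kidneys.
At the brightest probes Lig3 was the 1 gene of the 46 with every null value above every wild-type value (5.1% of all genes). The second probes of Lig4 and Xrcc2 had this as well. The Lig3 ratio was 0.23 ± 0.05 (limma adjusted p = 0.279). Its second probe had 0.07 ± 0.14, with overlapping levels. The Lig3 ratio became 0.36 after median centring and 0.15 as the mean of all kept probes. Arrays with null RNA in Cy5 averaged 0.37 and those with null RNA in Cy3 averaged 0.09. Xrcc1, the scaffold, had −0.39, 0.21 and 0.33, and Apex1, the endonuclease at base-less sites, −0.16, 0.31 and 0.42. Both turned sign between slides. Parp1, the sensor that marks nicks with poly(ADP-ribose), had −0.59, −0.31 and 0.01, and Lig1, the replicative ligase, had 0.24, −0.14 and −0.11.

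The Fanconi anaemia genes, whose products unhook cross-linked strands, each kept 1 sign in 3 of 3 replicates and in both dye means, in differing directions. Over all genes 35.6% did so. Fancd2, which is ubiquitinated at a cross-link, had log2 levels of 7.11, 7.47 and 7.46 in null kidneys, against 7.26, 7.91 and 7.85 in wild-type kidneys. Its ratio was −0.33 ± 0.15 (0.796-fold; limma adjusted p = 0.279) and was negative on all 8 arrays, with −0.61 computed from the authors' deposited table. Fanci, its partner in the clamp, had −0.04, −0.30 and −0.33, with null levels of 10.48, 10.45 and 10.39 below wild-type levels of 10.51, 10.75 and 10.72. The Fanci ratio was above 0 on 2 of 8 arrays, both of replicate 1, and was 0.013 after median centring. Fanca, of the core complex that ubiquitinates that pair, had 0.19, 0.25 and 0.11, above 0 on all 8 arrays. Its signal was 2.63 higher in null and 2.62 higher in wild-type kidneys of replicate 1 than on slide 2, the widest such gap among the 46 genes. The RecQ helicases Blm, which dissolves crossed-over strands, and Wrn had 0.17, −0.32 and −0.32, and 0.08, −0.31 and −0.55. Both were above 0 on slide 1 and below it on slide 2.

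The ratios of the 2 slides can be set side by side. Of the 46 genes, 22 were above 0 in replicate 1 and 21 on slide 2. The spread of the ratios over the 46 genes was 0.27 (SD) in replicate 1 and 0.36 and 0.35 in replicates 2 and 3; over all genes it was 0.24, 0.42 and 0.44. Across the 46 genes the ratios of replicates 2 and 3 had a correlation of 0.92, those of replicates 1 and 2 of 0.26 and those of replicates 1 and 3 of −0.07. Over all genes these were 0.94, 0.02 and −0.21. Genes are not independent replicates, and replicates 2 and 3 share a scan time and may share wild-type RNA.

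**Figure D4:**
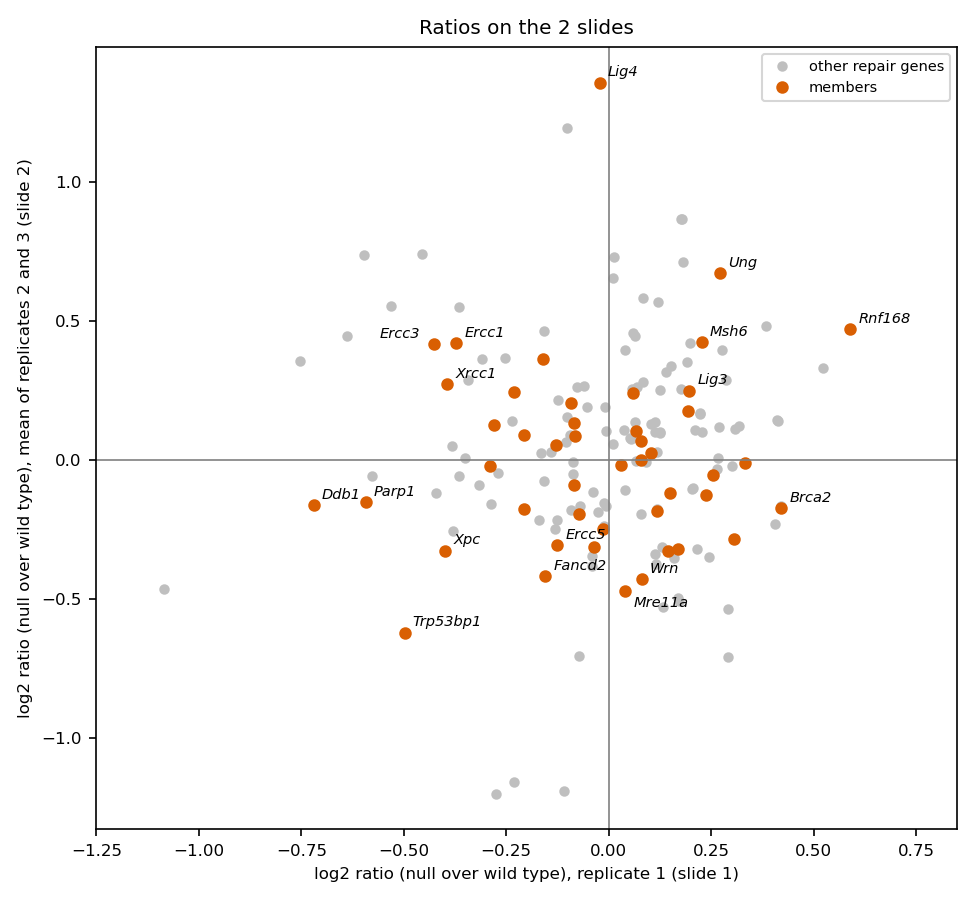
Log2 ratio of p53 null over wild-type signal in replicate 1 (slide 1, horizontal) against the mean of replicates 2 and 3 (slide 2, vertical) for the 46 genes (orange) and 118 other repair genes (grey). Rnf168, Ung, Msh6 and Lig3 lie at upper right and Trp53bp1, Xpc, Fancd2 and Ercc5 at lower left, while Lig4 lies high on the vertical axis with −0.02 on slide 1.

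How many repair genes were called differed between fits, and the cause was not tested. With the slide as a fixed block, 19 of the 46 had an adjusted p under 0.05, 8 above 0 and 11 below, against 43.2% of all genes. In that fit the spread comes from replicates 2 and 3 alone. Without replicate 1, 28 of the 46 had an adjusted p under 0.05 (60.9%), as did 60.1% of all genes. With 1 value per slide, or without replicate 2 or replicate 3, 0 of the 46 did. With the 8 arrays fitted and the replicate as a random effect, 5 did (10.9%; 6.18% of all genes), namely Rnf168, Trp53bp1, Ung, Xpc and Lig4. In each of these fits but the last, the share of the 46 genes was close to that of the array.

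**Figure D5:**
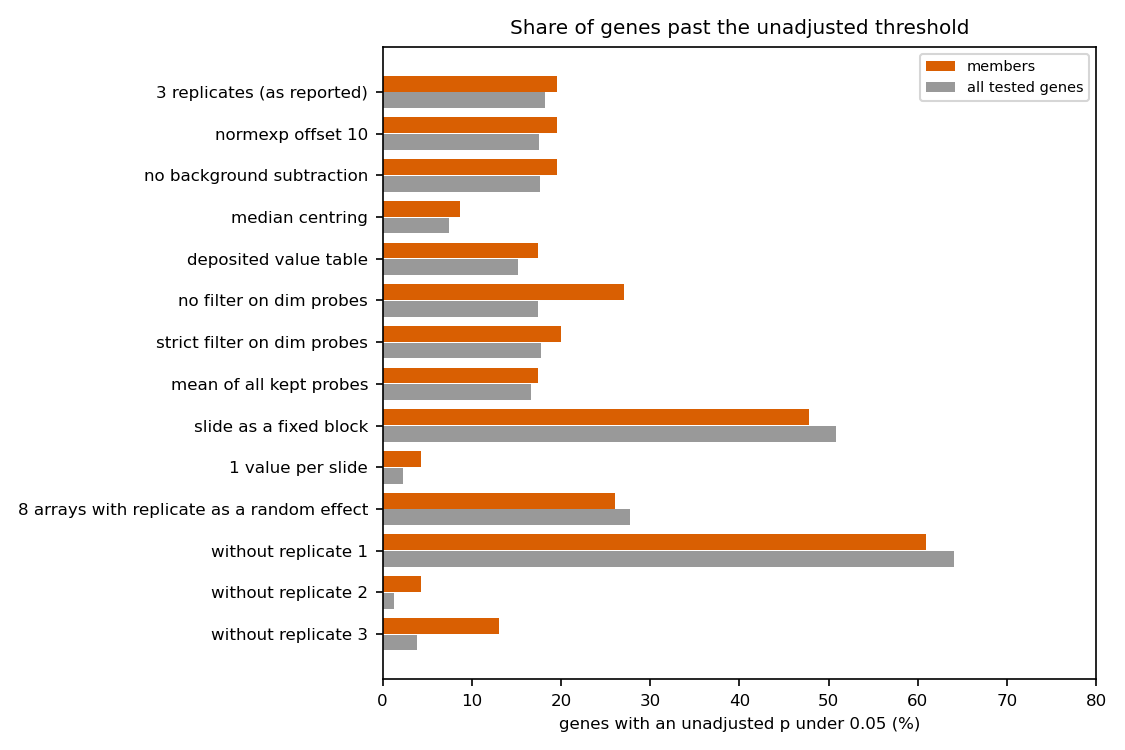
Share of genes with an unadjusted p under 0.05 in limma, in percent, for the repair genes (orange, 46 tested in the fit reported) and all tested genes (grey, 12000), under the fit reported and 13 alternatives. The bars stand at 60.9% of the repair genes and 64.1% of all genes without replicate 1, at 27.1% and 17.4% with no filter on dim probes, at 13.0% and 3.89% without replicate 3 and at 4.35% and 2.28% with 1 value per slide.

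Other genes of the same pathways were listed as well, 129 in all, of which 118 were tested. Of these, 18 had higher and 7 lower signal in null kidneys at an unadjusted p under 0.05 in limma (9.23% and 8.93% of all genes), 0 passed the adjusted threshold, and the median ratio was 0.07. Ube2a, the ubiquitin-conjugating enzyme of the bypass of blocked forks, had 0.38, 0.50 and 0.46 in replicates 1, 2 and 3, with null levels of 10.25, 10.33 and 10.21 above wild-type levels of 9.87, 9.83 and 9.75. Polb, the gap-filling polymerase, had 0.36 ± 0.08, Gtf2h2 of the TFIIH complex 0.39 ± 0.17, the nuclease gene Dna2 0.35 ± 0.13, Fancl, the ligase of the Fanconi core complex, 0.29 ± 0.08 and Rpa2, of the complex that coats single strands, 0.30 ± 0.11. Recql (0.18, 0.73 and 0.70), Ercc8 (0.18, 0.91 and 0.82) and Fancb (0.18, 0.96 and 0.77) kept 1 sign but were larger on slide 2. After median centring Gtf2h2 was 0.61, Fancl 0.45 and Rpa2 0.49, and computed from the authors' deposited table Recql was 0.87.
Of 10 tested p53-linked genes, 1 had higher and 4 lower signal in null kidneys at an unadjusted p under 0.05, and Trp53 itself is 1 of those 4. Cdkn1a, the p53 target that encodes the cyclin-dependent kinase inhibitor p21, had log2 levels of 7.62, 8.67 and 8.70 in null kidneys, against 7.90, 9.90 and 9.86 in wild-type kidneys, a ratio of −0.89 ± 0.53. Gadd45b, a stress-response gene, had −0.23, −1.26 and −1.05, and its relative Gadd45a had 0.12, 0.10 and 0.09. Of genes that meet p53 or the 46 in the same steps, the bypass polymerase genes Polk and Polh had −0.27 ± 0.20 and −0.10 ± 0.16, and Fancc −0.13 ± 0.12. Rrm2b was not tested.

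Marker lists moved beside these ratios, and their part in the results was not tested. Of 19 S phase genes, 14 were above 0 (median 0.18; 0.07 in replicate 1 and 0.24 on slide 2), and their summed signal was 112685 to 122273 in null kidneys, against 91564.5 to 120927 in wild-type kidneys. Of 14 genes of G2 and mitosis, 11 were below 0 (median −0.15; 0.02 in replicate 1 and −0.18 on slide 2), with sums of 63349.7 to 81601.8 in null kidneys, against 75412.9 to 77307.7 in wild-type kidneys. Hypoxia and glycolysis genes were below 0 in 15 of 15 cases, the median being −0.18 on slide 1 against −2.08 on slide 2; their sum was 114325 to 127808 in null kidneys, against 146546 to 524029 in wild-type kidneys. Stroma markers were below 0 in 9 of 10 cases (median −0.33; sums of 83176.1 to 88815.7 in null kidneys, against 99975.9 to 118618 in wild-type kidneys), and macrophage and leukocyte markers were above 0 in 7 of 7 cases (median 0.45; sums of 2421.43 to 3851.83 in null kidneys, against 2275.19 to 2320.05 in wild-type kidneys). Endothelial markers were above 0 in 5 of 7 cases (median 0.41; −0.0099 in replicate 1 and 0.65 on slide 2), with Kdr at −0.30 and Pecam1 at −0.12, and sums of 15120.9 to 15623.5 in null kidneys, against 9524.85 to 15716.5 in wild-type kidneys.
Erythroid markers were above 0 in 5 of 7 cases (median 0.57; −0.31 in replicate 1 and 1.104 on slide 2), with sums of 128993 to 193267 in null kidneys, against 82254.7 to 165142 in wild-type kidneys. Of 9 liver markers 4 were tested, and all 4 were above 0 (median 0.52, with −0.03 in replicate 1 and 0.78 on slide 2). Their sums were 2393.84 to 4666.91 in null kidneys, against 1639.18 to 3000.49 in wild-type kidneys. Alb, Apoa1, Apoa2 and Ttr were not tested, and Serpina1a had no probe. Skeletal muscle markers were above 0 in 5 of 6 cases (median 0.27), with sums of 948.68 to 1631.64 in null kidneys, against 876.166 to 1252.76 in wild-type kidneys. At an unadjusted p under 0.05 in limma, 4 of these 6 had higher signal in null kidneys. So did 4 of 7 macrophage and leukocyte markers and 5 of 19 S phase genes. Signal was lower for 13 of 15 hypoxia and glycolysis genes, 6 of 10 stroma markers and 2 of 14 G2 and mitosis genes. Endothelial markers had 2 higher and 1 lower, the liver, adrenal and gonad lists 1 higher each, and the kidney and erythroid lists 0. Over all genes 9.23% were higher and 8.93% lower. Of the adrenal markers 1 of 2 tested (8 listed) was above 0, and of the gonad markers 2 of 5 tested (9 listed) were.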

How the data were processed

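Column-purified total RNA was turned into dye-labelled cDNA without amplification, as the labels' protocols describe. For each spot the authors deposited the median signal and the median local background as linear intensity, with quality flags. Feature Extraction 10.5.1.1 wrote these files according to their headers, whereas version 6.1 stands in the submitters' processing notes. The deposited value table holds the log10 ratio that the program wrote, turned to null over wild type: on each array the correlation with the scanner's log ratio was 1 and the largest difference 4.94e-06. Its column medians were 0.0083, −0.0024, 0.0042 and 0.0015 on the 4 arrays of replicate 1. They were 0.00083 and 0.0064 on those of replicate 2, and 0.0064 and 0.011 on the last pair. These medians do not tell whether the values had been centred. Of its 43379 entries per array, 7732 to 14364 are empty.

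Background was corrected with normexp (offset 50) and arrays were normalised by loess in limma 3.58.1 (R 4.3.3). The 1639 control spots had weight 0, outlier flags were set to missing and 0 spots were saturated. Levels are log2 signals after quantile normalisation between arrays of each spot's mean log2 brightness over both dyes, which left the ratios as they were. Arrays of 1 extract pair were averaged within each dye and then over both dyes, giving 3 values per probe. Of 41174 probes, 20865 were tested: in every replicate, one genotype had to pass the scanner's well-above-background flag on 50% of arrays or more. The offset pulls the ratios of dim probes towards 0. The 3 values were fitted against 0 with limma's moderated fit (two-sided, 4.22 degrees of freedom), and p-values were adjusted by Benjamini-Hochberg across every tested probe. A permutation of signs cannot go below p = 0.25 with 3 replicates. A gene is its brightest kept probe. The array was designed on mm9, per the file headers; coordinates printed are those of RefSeq promoter windows on GRCm38.p6, and probes were named through that annotation (25097 of 41174). Correlations between replicates, levels by slide and well-above-background counts use the same probes. The precision is limited by the number of replicates, 3, of which 2 may share wild-type RNA.

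The genes, the lists, the tests, the alternatives and the rule for naming genes were chosen with earlier results of these data known. The rule gives replicate values for genes with 1 sign in all replicates and both dyes and for the leading genes of each role, the rest by mean or range; of the other repair genes it takes the 12 such genes with the smallest p under 0.05 and 8 set ones, some of which are not reported here. Alternatives were another offset, no background subtraction, median centring, the deposited table, no or a strict filter, the mean of all kept probes, the slide as a block, 1 value per slide, a random replicate effect and each replicate left out. The 3 replicates are called biological by the labels.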

Additional observations from a re-analysis of the deposited data

How the results depend on the processing

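Of the 46 genes, 23 kept their direction under all 13 alternatives, and Ercc6 kept it under the 12 in which it was tested. No repair gene passed the adjusted threshold under 10 of them; with the slide as a block 19 did, with the replicate as a random effect 5, and between 0 and 28 with 1 replicate left out (28 without replicate 1). The count of genes with higher signal in null kidneys at an unadjusted p under 0.05 was 9 with the slide block, 1 with 1 value per slide and 1 to 13 with a replicate left out. The count with lower signal was 0 after median centring, 7 with no filter on dim probes, 13 with the slide block, 1 with 1 value per slide, 8 with the random effect and 1 to 15 with a replicate left out. Other repair genes at that threshold numbered 14, 42, 66 and 4 under median centring, no filter, the slide block and 1 value per slide. They numbered 1 to 76 with a replicate left out, and 118 were tested in the fit reported. In the same order of settings 7.42%, 17.4%, 50.8% and 2.28% of all genes had an unadjusted p under 0.05, and 1.3% to 64.1% with a replicate left out. Of the described genes it was 8.70%, 27.1%, 47.8% and 4.35%, and 4.35% to 60.9%. With the random effect it was 26.1% of the described genes and 27.7% of all genes. The median ratio became 0.16 after median centring, which moved that of all genes to 0.15, and 0.041 in the deposited table. With that shift, median centring turned Fanci (0.013), Rad52 (0.087), Ddb2 (0.015), Brca1 (0.11), Blm (0.094), Atr (0.14), Palb2 (0.083), H2afx (0.29), Ercc2 (0.035), Rad54l (0.20), Lig1 (0.29), Xrcc2 (0.16) and Fancc (0.064). The deposited table turned H2afx (0.073), Ercc2 (0.015) and Xrcc2 (0.041); the mean of all kept probes Ercc4 (−0.045) and Xrcc2 (0.065); offset 10 Lig1 (0.0016); no background subtraction Xrcc2 (0.0027); and the random effect Lig1 (0.0028). The slide block and 1 value per slide both turned Ercc3 (−0.0042), Atr (0.012), Palb2 (0.015), Xrcc1 (−0.061), Lig1 (0.056) and Xrcc2 (0.0064). With 1 replicate left out, these ranges crossed 0: Xpa −0.0093 to 0.19, Ercc1 −0.011 to 0.42, Xrcc6 −0.012 to 0.13, Xrcc5 −0.0098 to 0.24, Ercc3 −0.075 to 0.42, Atr −0.28 to 0.043, Chek1 −0.053 to 0.15, Rnf8 −0.0013 to 0.087, Ercc4 −0.00092 to 0.051, Palb2 −0.12 to 0.038, Xrcc1 −0.092 to 0.27, Brca2 −0.17 to 0.13, H2afx −0.066 to 0.090, Ercc2 −0.082 to 0.053, Rad54l −0.092 to 0.13, Lig1 −0.12 to 0.063 and Xrcc2 −0.018 to 0.0077. The cause of these changes was not tested. The fit was paired, because the values fitted are ratios of the genotypes within a replicate, and no unpaired counterpart was fitted.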

Other observations

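Of the 46 genes, 4 had signal that differed between slides by more than 1 on the log2 scale in both genotypes. Fanca, Msh6, Ung and Chek1 were brighter in replicate 1, with gaps of 2.63, 1.73, 1.47 and 1.65 in null kidneys, against 2.62, 1.93, 1.87 and 1.34 in wild-type kidneys. The gap of Ddb2 ran the other way, with −0.73 in null and −1.20 in wild-type kidneys.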
